A study of Mus musculus with 21 samples.

Results

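The 6 GATA transcription factor genes of the mouse (Gata1 to Gata6) and the 2 genes of their FOG cofactors (Zfpm1, which encodes FOG1, and Zfpm2, which encodes FOG2) were followed in whole liver after endothelial deletion of Gata4. The members, on chromosomes X (Gata1), 6 (Gata2), 2 (Gata3 and Gata5), 14 (Gata4), 18 (Gata6), 8 (Zfpm1) and 15 (Zfpm2), were found by symbol among the 25428 gene rows of the expression table, and all 8 were measured, 1 row each. Total RNA came from 21 livers of mice on a standard diet, 1 array per liver. In 10 of them, labelled Gata4-LSEC-KO and called knockout here, the floxed allele Gata4tm1.1Sad had been crossed with the driver Tg(Clec4g-icre)1.1Sgoe, a Cre recombinase under regulatory sequence of Clec4g, a lectin gene of liver sinusoidal endothelium. The other 11 were sibling controls with the genotype label wt. The sources used here do not say whether these carried the floxed allele or the driver, nor the age and sex of the mice. Sample numbers in the labels form 2 runs of consecutive numbers, which the labels do not explain. Run 1 holds 9 livers (5 control, 4 knockout), run 2 holds 12 (6 of each), and run was a term in the test. The labels call the livers biological replicates.

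GATA factors carry a pair of zinc fingers that bind the short DNA sequence known as the GATA site, and FOG proteins have no DNA site of their own but attach to the amino-terminal finger of a GATA factor and bring corepressor complexes to it. Gata1, Gata2 and Gata3 are best known from blood cells, and Gata4, Gata5 and Gata6 from heart and from organs derived from endoderm and mesoderm. In the liver, GATA4 is known as a regulator of the sinusoidal endothelium, the fenestrated and scavenging vessel lining, and it is also made in hepatic stellate cells. A whole liver lysate holds hepatocytes above all, so a transcript of a rarer cell is diluted, and fewer cells of a type cannot be told apart from less RNA per cell.

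Values are log2 signals after robust multi-array averaging (RMA), with a median of 3.75 and quartiles of 2.98 and 6.12 on the arrays. Probe sets bind with different strength, so signals were compared between livers and not between genes, and the number of arrays limits the precision. Gata4, Gata6 and Zfpm1 had signals above the upper quartile or close to it, Gata3 lay near the median, and Gata1, Gata2, Gata5 and Zfpm2 had means under the median, where a value can be close to background. Each array correlated with the other arrays of its genotype and run at a median of 0.981 to 0.991, the lowest being knockout replicate 6 and control replicate 3. Hepatocyte markers were bright (mean log2 value over the list 12.0 to 12.3 in controls and 12.1 to 12.3 in knockout livers), and none of the 10 measured passed the test. The nearest was Cyp2e1, a cytochrome P450 of hepatocytes (-0.31 ± 0.10, SE; limma adjusted p = 0.051), which passed when any single one of 4 livers was left out (adjusted p down to 0.016).

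Of the GATA and FOG genes, Gata6 alone passed the test of genotype (limma, adjusted p under 0.05 over all rows), and it was higher in knockout livers. That is 1 of 8 members, where 7.33% of all rows passed in either direction, so the count itself is near the background. At an unadjusted p under 0.05 it was 2 of 8, Gata2 and Gata6, against 22.4% of all rows. Gata4, the deleted gene, did not pass. Gata2 did not pass over all 21 livers, while within run 2 its genotypes did not overlap. In run 2, 1.38% of all rows were separated with knockout livers higher. Zfpm1, Zfpm2, Gata1, Gata3 and Gata5 did not pass in all livers or in either run.

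**Figure D1:**
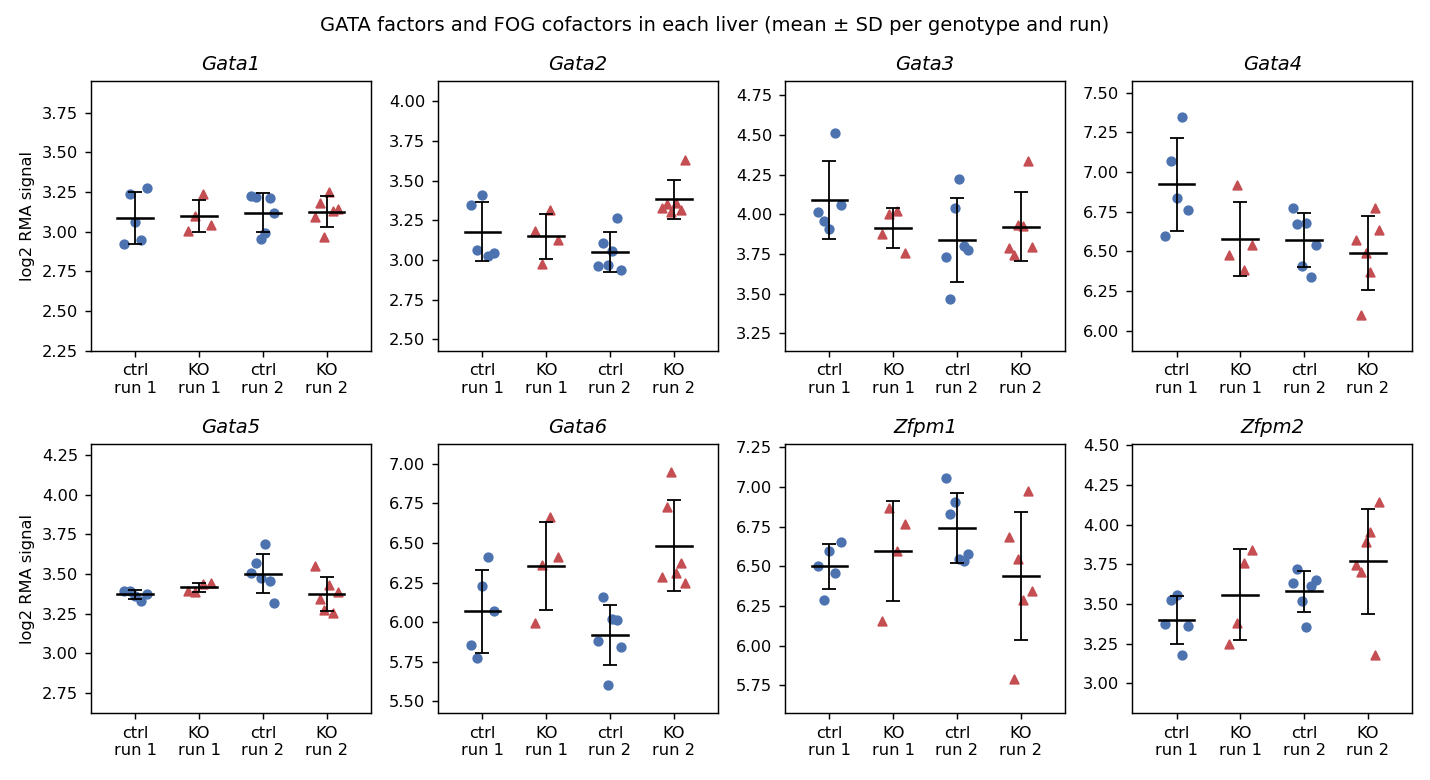
Log2 RMA signal (y axis) of each GATA and FOG gene in each of the 21 livers, by genotype and run (x axis: 5 control and 4 knockout livers in run 1, 6 and 6 in run 2). Blue circles are controls, red triangles are knockout livers, and black lines are the mean ± SD. All panels span the same height. In run 2 the knockout livers lie above all controls for Gata2 and for Gata6, as in 1.38% of all rows.

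Gata6 encodes a close relative of GATA4 that works beside it in heart and gut. In run 1 the 5 controls had log2 values of 5.85, 5.78, 6.23, 6.41 and 6.07, and the 4 knockout livers 5.99, 6.36, 6.67 and 6.41. In run 2 the 6 controls ran from 5.60 through a median of 5.95 to 6.16, and the 6 knockout livers from 6.24 through 6.34 to 6.95. The groups overlapped in run 1 and did not overlap in run 2, a pattern found with knockout livers higher in 1.38% of all rows (1.71% in run 1, which held none of the 8 members, and 0.0905% over all 21 livers, likewise none). Controls averaged 5.99 ± 0.23 (SD, n = 11), and knockout livers averaged 6.43 ± 0.27 (SD, n = 10). Gata6 was 1.36-fold higher, a log2 difference of 0.45 ± 0.11 (SE, 95% interval 0.22 to 0.67), with an adjusted p of 0.016 in limma. In 9 of 10 knockout livers it lay above the control mean of its run, the exception being replicate 1. Within runs the difference was 0.29 ± 0.16 (SE) in run 1 and 0.56 ± 0.13 in run 2, with adjusted p-values of 0.55 and 0.031 in limma. Only 0.0118% of all rows passed in run 1. The 2 differences were not shown to be unlike (interaction in limma, 0.27 ± 0.21, adjusted p = 0.72). The rise kept its call without any 1 of the 21 livers, with differences from 0.39 to 0.50 and adjusted p-values up to 0.035.

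Gata4 encodes the factor deleted in the sinusoidal endothelium. Its log2 values in run 1 were 6.60, 7.07, 6.84, 7.35 and 6.76 in controls and 6.48, 6.92, 6.39 and 6.54 in knockout livers. In run 2 they went from 6.34 through a median of 6.61 to 6.78 in controls and from 6.10 through 6.53 to 6.78 in knockout livers. The genotypes overlapped in both runs, and 1 knockout liver, replicate 6, lay below the lowest control. The knockout minus control difference was -0.19 ± 0.10 (SE) (95% interval -0.40 to 0.02; limma adjusted p = 0.26). The sources used here do not place the probes of this row relative to the floxed part of the gene, so the row does not check the deletion. Clec4g, whose regulatory sequence drives the Cre, fell by 0.92 ± 0.23 (log2, SE; limma adjusted p = 0.018), a call lost without the run term (adjusted p = 0.053).

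Set against each other within a liver, the Gata6 minus Gata4 difference of log2 signals had less overlap between genotypes than either gene in run 1, and more than Gata6 alone in run 2. This difference was chosen after the values were seen and is given without a test. It ran from -1.29 through a median of -0.70 to -0.33 in controls and from -0.56 through -0.21 to 0.63 in knockout livers. In run 1 all 4 knockout livers lay above the highest control, and in run 2 4 of 6 did, where 6 of 6 did for Gata6 alone. How often the difference between 2 rows separates the genotypes in this way was not counted. The mean shift between genotypes was 0.63 in run 1 and 0.64 in run 2. Taken alone in run 1, Gata6 had 0.29 and Gata4 -0.34, and neither passed (limma adjusted p = 0.55 and 0.45). The sign of the difference within a liver reflects the probes as well as the transcripts and is not read here.

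**Figure D2:**
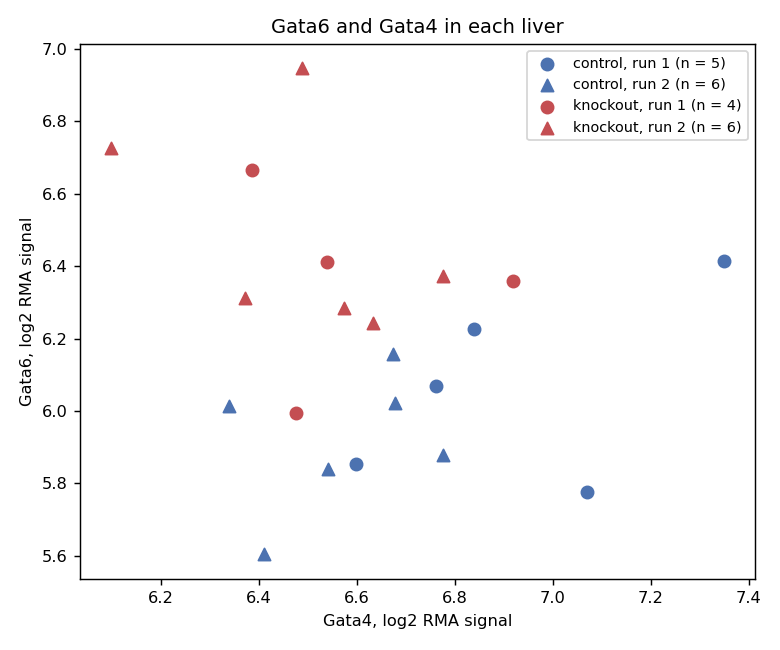
Log2 RMA signal of Gata4 (x axis) and Gata6 (y axis) in each of the 21 livers, with controls in blue and knockout livers in red, run 1 as circles and run 2 as triangles. Gata6 runs from 5.60 to 6.41 in controls and from 5.99 to 6.95 in knockout livers. Gata4 runs from 6.34 to 7.35 in controls and from 6.10 to 6.92 in knockout livers, so the genotypes overlap on both axes. The control with the highest Gata4 also has the highest Gata6 of the controls.

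Gata2 encodes the factor of blood stem cells, mast cells and endothelium. Its 5 run 1 controls had log2 values of 3.35, 3.06, 3.41, 3.02 and 3.05, and the 4 knockout livers of that run 3.18, 2.97, 3.32 and 3.13. In run 2 controls went from 2.94 through 3.01 to 3.27, and knockout livers from 3.30 through 3.34 to 3.63. The run 1 groups overlapped throughout, and all 6 run 2 knockout livers lay above the highest control of that run, as in 1.38% of all rows. The difference over all livers was 0.18 ± 0.07 (SE, 95% interval 0.03 to 0.33), with an unadjusted p of 0.024 and an adjusted p of 0.15 in limma. Within run 2 it was 0.33 ± 0.08 (adjusted p = 0.030 in limma, where 5.06% of rows passed), and within run 1 it was -0.03 ± 0.11 (adjusted p = 0.95). The change between runs was 0.36 ± 0.13, with an unadjusted p of 0.011 that did not survive adjustment over all rows (adjusted p = 0.31 in limma). All these values lie under the array median of 3.75.

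Gata1, the master factor of red cells and platelets, showed no difference that these livers could resolve. Controls averaged 3.11 ± 0.14 (log2, SD, n = 11) and knockout livers 3.11 ± 0.09 (SD, n = 10), and the 95% interval of the difference was -0.11 to 0.12. Controls ran from 2.92 to 3.28 and knockout livers from 2.96 to 3.25, so the knockout range lay inside the control range.

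Gata3 directs T helper type 2 cells and type 2 innate lymphoid cells. It ran from 3.47 through 3.96 to 4.52 in controls and from 3.75 through 3.90 to 4.34 in knockout livers. The knockout range again lay inside that of controls, and the difference was -0.03 ± 0.10 (SE, 95% interval -0.23 to 0.17). The run 1 value of -0.18 and the run 2 value of 0.08 had opposite signs, and this change between runs did not pass (limma adjusted p = 0.69).

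Gata5, known from the endocardium, ran from 3.32 to 3.69 in controls and from 3.26 to 3.55 in knockout livers. Its difference was -0.05 ± 0.05 (SE, 95% interval -0.16 to 0.05), with 5 of 10 knockout livers above and 5 below the control mean of their run.

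Zfpm1 encodes FOG1, the partner of GATA1 in red cell and platelet formation. Controls ran from 6.29 through 6.58 to 7.06 and knockout livers from 5.79 through 6.57 to 6.97. The medians nearly met, while the SD was 0.22 in controls and 0.36 in knockout livers. The lowest knockout livers were replicate 6, at 5.79, and replicate 1, at 6.15, both below every control. The difference was -0.13 ± 0.12 (SE, 95% interval -0.39 to 0.13), 0.10 in run 1 and -0.30 in run 2.

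Zfpm2 encodes FOG2, the partner of GATA4 in heart and gonad. Controls ran from 3.18 through 3.53 to 3.72 and knockout livers from 3.18 through 3.75 to 4.15. In 6 of 10 knockout livers Zfpm2 was above the highest control, while replicate 9 was about as low as the lowest control. The difference was 0.18 ± 0.10 (SE, 95% interval -0.03 to 0.38; limma adjusted p = 0.30), and it was of like size in run 1 (0.16) and run 2 (0.19).

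**Figure D3:**
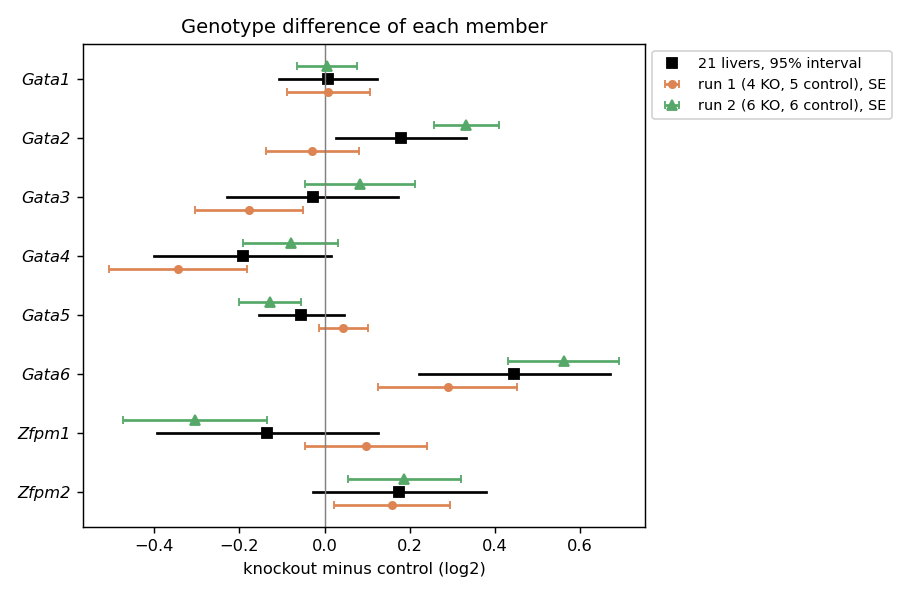
Knockout minus control difference (log2, x axis) of each GATA and FOG gene. Black squares and lines give all 21 livers with the 95% interval, orange circles run 1 and green triangles run 2 with the standard error. Gata6 lies to the right of 0 in both runs (0.29 and 0.56), and Gata2 does so in run 2 only (0.33 against -0.03).

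At equal genotype none of the 8 passed between run 2 and run 1, where 4.11% of all rows did. Gata4 had the lowest p, with a log2 difference of -0.23 ± 0.10 (SE) in run 2 (unadjusted p = 0.033, limma adjusted p = 0.24). None of the 8 had a genotype difference that changed between runs at an adjusted p under 0.05 in limma, 1 (Gata2) did at an unadjusted p under 0.05, and the shares over all rows were 0.0315% and 10.2%.

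Variation among livers of the same genotype and run was compared between members. Of 28 pairs, correlated over 21 livers after centring on genotype and run, 1 passed a permutation test: Gata3 and Zfpm2 were inversely related (Pearson r = -0.66, permutation p = 0.0012, adjusted p = 0.035). Spearman's rho for that pair was -0.51 (permutation p = 0.027, adjusted p = 0.51), r was -0.53 in run 1 and -0.72 in run 2, and it was -0.44 without the 2 livers farthest from the median of Gata3. Gata4 and Zfpm1 had r = 0.49 (permutation p = 0.036, adjusted p = 0.50) and rho = 0.36 (permutation p = 0.13, adjusted p = 0.51). For that pair r was 0.11 in run 1, 0.77 in run 2 and 0.53 without the 2 livers farthest from the median of Gata4. Gata6 and Gata4 had r = 0.04 (permutation p = 0.89, adjusted p = 0.9997) and rho = 0.0026 (permutation p = 0.99, adjusted p = 0.99), with 0.27 in run 1, -0.20 in run 2 and -0.16 without 2 livers.

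**Figure D4:**
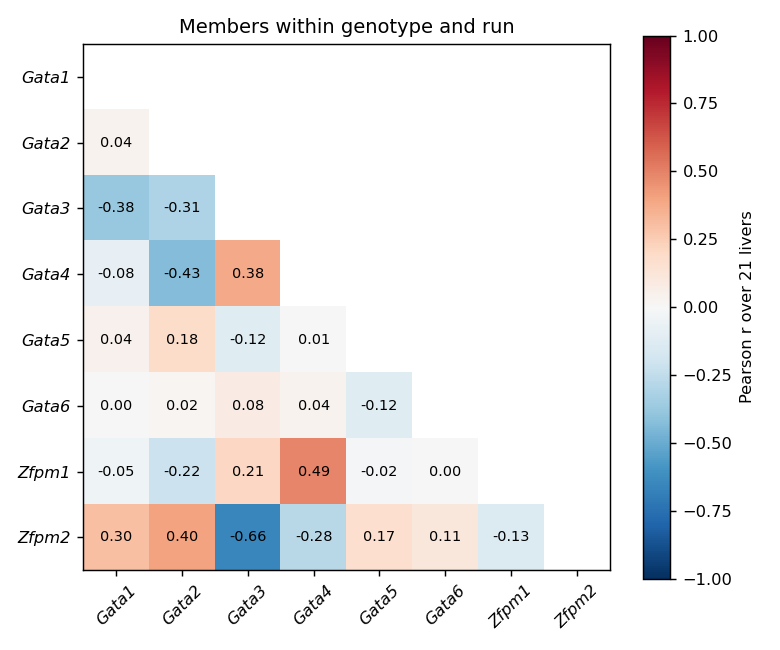
Pearson r between each pair of GATA and FOG genes over 21 livers, after the mean of each genotype and run was removed. Red is positive and blue negative, and the values run from -0.66 (Gata3 with Zfpm2) to 0.49 (Gata4 with Zfpm1).

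The genes whose variation within genotype and run was most like that of a member over the 21 livers were named by Pearson r. The search covered rows with a symbol, leaving out predicted genes (Gm and digits, or ending in Rik). These r values are the highest of a search over many rows. They were not tested and are a description only. For Gata6 they were Kdm1a (a histone demethylase, r = 0.75), Sipa1 (r = 0.74) and Pip5k1c (r = 0.73). For Gata4 they were Ccdc124 (r = 0.82), Bcor (a corepressor, r = 0.78) and an olfactory receptor gene, Olfr860 (r = 0.78). For Gata2 they were Cert1, Ska2 and Raet1d (r = 0.76, 0.73 and 0.73), and for Gata3 Crebzf, Dot1l and Sfpq (0.80, 0.79 and 0.78). For Zfpm1 they were Ppp2r3a, Birc6 and Rnf43 (0.83, 0.77 and 0.76), and for Zfpm2 Dpy19l3, the cytokine gene Il33 and Arid5b (0.82, 0.80 and 0.79). For Gata1 they were Ccdc42os, Smpd4 and Trbv12-1 (0.77, 0.76 and 0.72), and for Gata5 Olfr430, Trim47 and Cfhr3 (0.82, 0.79 and 0.74).

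Proteins that bind GATA factors or FOG proteins, and the corepressors that FOG proteins recruit, were taken as a list. Of 32 measured, 2 rose (3.28% of all rows did) and 1 fell (4.05% of all rows did), and the median difference was 0.07 against -0.01 over all rows. Nr2f2, which encodes the nuclear receptor COUP-TFII, a venous endothelial factor that binds FOG2, ran from 5.36 through 5.72 to 6.00 in controls and from 4.93 through 5.27 to 5.52 in knockout livers. It was lower than the lowest control in 5 knockout livers and below the control mean of its run in all 10. Nr2f2 fell by 0.45 ± 0.10 (log2, SE; limma adjusted p = 0.0081). The run 1 difference was -0.34 and the run 2 difference -0.53, and Nr2f2 kept its call without any 1 liver.

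Runx1 and Fli1 encode blood and endothelial factors that act with GATA1 and GATA2. Runx1 ran from 3.39 through 3.60 to 3.86 in controls and from 3.57 through 4.04 to 4.30 in knockout livers, and 7 knockout livers lay above the highest control. It rose by 0.36 ± 0.08 (log2, SE; limma adjusted p = 0.013). Fli1 ran from 5.70 through 6.16 to 6.91 in controls and from 6.26 through 6.71 to 7.37 in knockout livers, with 4 above the highest control. It rose by 0.58 ± 0.16 (limma adjusted p = 0.034), but not when any single one of 9 livers was left out (adjusted p up to 0.069). Other members of the GATA1 complex, picked by role after the values were seen, did not pass: Ldb1, the bridging factor, had a difference of 0.24 ± 0.08 (limma adjusted p = 0.065), Tal1 of -0.14 ± 0.08 and Lmo2 of -0.09 ± 0.13. The corepressor genes Hdac1, Hdac2, Chd4, Rbbp4, Mbd3, Ctbp1 and Ctbp2 did not pass either, with differences from -0.21 (Mbd3) to 0.19 (Ctbp1).

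Upstream sequence of these genes was searched for the letters of the GATA site, which are AGATAA or else AGATAG, and with a different first letter TGATAA or else TGATAG, on either strand, in the 250 bases before each start listed by RefSeq in build GRCm38.p6. Of 32851 such windows, 26.5% held at least 1 match. Windows were found for 5 members (Gata1, Gata2, Gata3, Gata5 and Zfpm1), 6 in all with 2 starts of Gata2, and none of the 6 held a match. Outside the family only the windows of Nr2f2 and of the driver gene Clec4g were read, picked after both were seen to fall. Each held 1 match, and they are shown for that reason. The genes that fell numbered 1030 in all, and the share of them with a match was not counted. The matches shown therefore say nothing about the genes that fell as a group. The match is in capitals and each sequence reads 5′ to 3′ toward the start of its gene, on the minus strand at chr7:70366747-70366996 for Nr2f2 and at chr8:3720652-3720901 for Clec4g. The match begins at base -118 from the start of Nr2f2, where it is CTATCT, the reverse complement of AGATAG, and at base -62 in Clec4g.
Nr2f2: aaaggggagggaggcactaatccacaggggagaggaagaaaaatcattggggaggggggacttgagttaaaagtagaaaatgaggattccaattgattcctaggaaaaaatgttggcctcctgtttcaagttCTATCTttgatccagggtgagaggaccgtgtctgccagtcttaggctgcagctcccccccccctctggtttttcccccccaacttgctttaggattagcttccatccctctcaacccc
Clec4g: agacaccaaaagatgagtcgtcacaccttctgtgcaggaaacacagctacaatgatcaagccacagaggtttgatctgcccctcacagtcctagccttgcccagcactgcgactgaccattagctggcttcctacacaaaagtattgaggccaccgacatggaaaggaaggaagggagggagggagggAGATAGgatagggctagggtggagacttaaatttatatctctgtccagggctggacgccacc
A match in letters is not a binding site, and whether GATA4 binds there was not measured.

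Relatives that share a GATA-type zinc finger but belong to other families were listed as well. None of the 9 measured passed (7.33% of all rows did), with a median difference of 0.05. Trps1, a repressor at GATA sites, had the lowest p (0.19 ± 0.07, SE, limma adjusted p = 0.11), and it passed without control replicate 3 (adjusted p = 0.046). Gatad2a and Gatad2b, also picked by role, subunits of the nucleosome remodelling complex NuRD, had differences of 0.10 ± 0.07 and 0.01 ± 0.06.

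**Figure D5:**
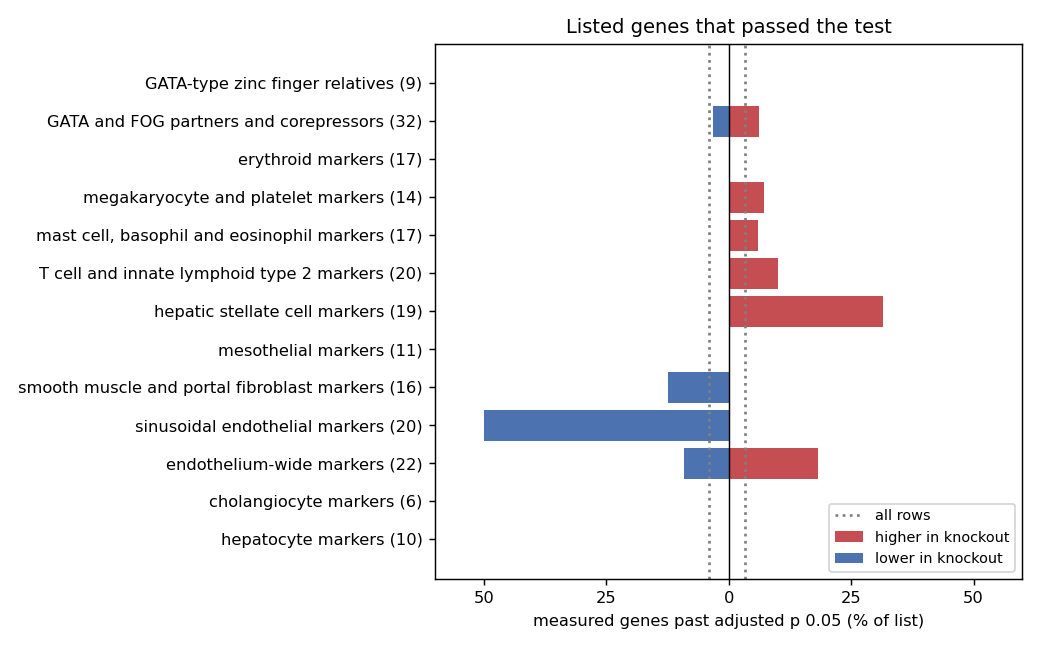
Share of the measured genes of each list (percent, x axis) that passed an adjusted p of 0.05, with higher genes in red to the right of 0 and lower genes in blue to the left. List sizes are in brackets, and dotted lines mark all rows (3.28% higher, 4.05% lower). Stellate cell markers (6 of 19 higher) and sinusoidal endothelial markers (10 of 20 lower) had the largest shares. The lists were chosen with earlier results of these data known.

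The cell types in which these factors are known to act were followed by their own markers, beside the values above. These lists were chosen with earlier results of these data known, so their shares are a description and not independent evidence. Over all rows 3.28% rose and 4.05% fell. Among sinusoidal endothelial markers 10 of 20 fell, the driver gene Clec4g among them, and 0 rose, with a median difference of -0.41. The mean log2 value over the list went from 6.81 to 7.55 in controls and from 6.43 to 7.03 in knockout livers. The 3 differences above 0, none past the test, were Lyve1 (0.58 ± 0.31, SE), Ehd3 (0.34 ± 0.19) and Ctsl (0.19 ± 0.12). The lowest p-values were those of the plexin gene Plxnc1 (-1.01 ± 0.12, SE), the growth factor gene Bmp2 (-1.17 ± 0.15) and F8, the gene of clotting factor VIII (-0.77 ± 0.13), each called without any 1 liver. Of 22 markers common to all endothelium, 4 rose, among them the transcription factor gene Sox18 (0.65 ± 0.13, SE), and 2 fell, Ptprb (-0.56 ± 0.11) and Nos3 (-0.43 ± 0.08). The median of that list was 0.07, and its mean level went from 5.56 to 6.14 in controls and from 5.76 to 6.31 in knockout livers. Of 19 stellate cell markers, 6 rose, led by Cygb, Pdgfrb and Rgs5, and none passed the test as lower. The list was mixed, with 13 of the 19 differences above 0 and the lowest at -0.21 (Lhx2, limma adjusted p = 0.25). Its median was 0.24, with mean levels from 6.09 to 6.64 in controls and from 6.35 to 6.92 in knockout livers. Lrat, the retinol-storing enzyme that defines these cells (picked by role), had a difference of 0.24 ± 0.16 (limma adjusted p = 0.42). The part that any of these cell types has in the level of Gata4, Gata6 or Gata2 was not tested.

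Of further cell types in the lysate, mesothelial markers had 0 of 11 past the test (mean level 3.52 to 3.74 in controls and 3.48 to 3.82 in knockout livers), and Upk1b had the lowest p (0.19 ± 0.08, SE; limma adjusted p = 0.12). It passed without control replicate 1 (adjusted p = 0.031), and the other left-out fits reached 0.20. Of 16 smooth muscle and portal fibroblast markers, 2 fell, Mylk, the kinase of smooth muscle myosin (-0.31 ± 0.07, limma adjusted p = 0.012), and the collagen gene Col15a1 (-0.48 ± 0.14, limma adjusted p = 0.039), and none rose. Col15a1 did not pass when any single one of 11 livers was left out (adjusted p up to 0.076). Of the 16 differences 8 were above 0, with a median of 0.0047, so the list did not fall as a whole. Among all rows 3.28% rose and 4.05% fell. The mean level of the 16 markers went from 4.37 to 5.13 in controls and from 4.43 to 4.80 in knockout livers. None of 6 measured cholangiocyte markers passed (mean level 3.59 to 4.06 in controls and 3.78 to 4.64 in knockout livers), and all 6 differences were above 0, with Sox9 at 0.57 ± 0.18 (limma adjusted p = 0.060, and down to 0.038 without single livers, 5 of which brought it past the threshold).

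For blood cells in which GATA1, GATA2 and GATA3 act, the lists were dim. The shares over all rows were 3.28% higher and 4.05% lower. None of 17 measured erythroid markers passed, with a median of -0.01 and mean levels from 3.58 to 3.85 in controls and from 3.54 to 4.05 in knockout livers. Hemgn had the lowest p (0.15 ± 0.06, SE), and Klf1, the erythroid factor downstream of GATA1 (picked by role), had a difference of -0.11 ± 0.07. Of 14 megakaryocyte and platelet markers 1 rose, the platelet factor gene Pf4 (0.37 ± 0.10, limma adjusted p = 0.031), though not when any single one of 6 livers was left out (adjusted p up to 0.062). The mean level of this list went from 3.80 to 4.03 in controls and from 3.91 to 4.56 in knockout livers. Of 17 markers of mast cells, basophils and eosinophils 1 rose, the eosinophil granule gene Prg2 (0.29 ± 0.07, limma adjusted p = 0.021). Of these 17 markers, 15 lay under the array median, and the mean level went from 2.97 to 3.11 in controls and from 2.98 to 3.37 in knockout livers. Of 20 markers of T cells and type 2 innate lymphoid cells, 2 rose, Cd3e (0.26 ± 0.07) and Trac (0.66 ± 0.19), with mean levels from 3.89 to 4.13 in controls and from 3.93 to 4.23 in knockout livers. The calls of Cd3e and Trac were lost without any 1 of 4 and any 1 of 11 livers. These last 3 lists were mixed. Differences were above 0 for 9 of 14 megakaryocyte and platelet markers (median 0.05). They were so for 10 of 17 mast cell, basophil and eosinophil markers (median 0.04) and 12 of 20 T cell and innate lymphoid markers (median 0.05).

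Across livers, the level of a member and the mean level of a list were compared within genotype and run for 104 pairs. None passed by Pearson r (lowest adjusted p = 0.46). For Gata6 the 3 pairs with the lowest p were the cholangiocyte list (r = 0.65, permutation p = 0.0059, rho = 0.55, permutation p = 0.021), the list of GATA and FOG partners (r = 0.56, permutation p = 0.016, rho = 0.56, permutation p = 0.016) and the hepatocyte list (r = -0.55, permutation p = 0.018, rho = -0.57, permutation p = 0.013), with adjusted p-values of 0.46 to 0.48 for r and 0.31 for rho. The cholangiocyte relation was 0.20 in run 1 and 0.90 in run 2, and r was 0.57 without the 2 livers farthest from the median of Gata6. The stellate cell list had r = -0.23 with Gata6 (permutation p = 0.34, rho = -0.21, permutation p = 0.38). By Spearman's rho 1 of the 104 pairs passed, Zfpm2 with markers common to all endothelium (rho = 0.71, permutation p = 2.8e-04, adjusted p = 0.029), where r was 0.60 (permutation p = 0.0088, adjusted p = 0.46), 0.71 in run 1, 0.53 in run 2 and 0.63 without 2 livers.

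Genes beside the members in the genome were read by gene order in GRCm38.p6. Of the 3 nearest measured genes on each side of Gata4 on chromosome 14, Ctsb, the cathepsin B gene, rose by 0.29 ± 0.07 (log2, SE; limma adjusted p = 0.015), and Fdft1, Neil2, Blk, Fam167a and Tdh did not pass, with differences from -0.10 to 0.06. Of the 48 neighbours of all 8 members 1 rose and 3 fell, where 3.28% of all rows rose and 4.05% fell, so these counts are near the background. The 3 that fell, named after their values were seen, were B230312C02Rik near Gata5 (-0.30 ± 0.07), Zc3h18 near Zfpm1 (-0.31 ± 0.09) and Oxr1 next to Zfpm2 (-0.18 ± 0.05). Zc3h18 did not pass when any single one of 10 livers was left out (limma adjusted p up to 0.067). The antisense transcript gene Gata6os, also picked afterwards, lies next to Gata6 and had a difference of 0.07 ± 0.12 (limma adjusted p = 0.80), 0.28 in run 1 and -0.08 in run 2.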

How the data were processed

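The authors deposited log2 values from 21 arrays, and the submitters' processing notes name RMA as the method. RMA version, array library and build: not given in the sources used here. Scanner files were not used. Quantile normalization inside RMA gives every array the same distribution, so a change shared by most genes would not be seen. Rows carry Entrez gene numbers, and symbols came from the platform annotation (24705 of 25428 rows). Genotype was tested with limma 3.58.1 (R 4.3.3; lmFit, eBayes) on all rows without a filter, with genotype and run as terms and Benjamini-Hochberg adjustment over all rows at 0.05. Interaction and within-run fits used the same tool. Correlations used values centred on genotype and run, with 100000 permutations inside these groups, adjusted within each family. Lists came from textbook knowledge (207 of 228 distinct symbols measured). Genes named were the members, up to 3 passing genes of each list or else the one with the lowest p, the 3 nearest genes on each side of Gata4, called genes beside the other members and the 3 most similar genes per member. The members and lists were chosen with earlier results of these data known. The fits were tested on simulated data. Replicate numbers recur in both genotypes and were checked for pairing. Promoter sequences came from RefSeq (GRCm38.p6). Figures were drawn with matplotlib 3.10.9.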

Additional observations from a re-analysis of the deposited data

Results flagged for a closer look

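Gata3 in the knockout livers had 1 value apart from the rest. Replicate 9 had a log2 value of 4.34, while the remaining 9 lay between 3.75 and 4.02. Its gap to the nearest took up 0.531 of the whole range, above the 95% critical value of Dixon for 10 samples. Controls reached 4.52 in replicate 4, a run 1 liver, so the value lies inside the range of the controls of both runs. Knockout replicate 9 is a run 2 liver, and its value lies above the highest run 2 control, at 4.22. About 1 in 20 groups passes the Dixon critical value by chance, and 8 were looked at.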

How the results depend on the processing

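The call of Gata6 held under the fits without the run term, with a replicate block (0.43, adjusted p = 0.018), after a second quantile normalization or median centring, without dim rows, with an intensity trend and with array weights, with adjusted p-values up to 0.018 in limma. It was lost within run 1 (0.29), where 0 members, 2 higher and 1 lower gene passed in all. Within run 2, 552 genes were higher and 2 members passed, Gata2 (0.33) being the added one. The sign turned for Gata2 (-0.029), Gata5 (0.044) and Zfpm1 (0.096) in run 1, for Gata3 (0.083) in run 2 and for Gata1 with array weights (-0.011); none of these differences passed there. Without each liver in turn, differences ran from -0.011 to 0.026 for Gata1, 0.14 to 0.22 for Gata2, -0.080 to 0.021 for Gata3, -0.23 to -0.14 for Gata4, -0.07 to -0.03 for Gata5, 0.39 to 0.50 for Gata6, -0.19 to -0.05 for Zfpm1 and 0.13 to 0.24 for Zfpm2, and 1 member passed each time. The genes that passed over all rows numbered 834 higher (565 to 981 without 1 liver) and 1030 lower (629 to 1471), with 629 lower without control replicate 8 and 661 without control replicate 9. Without the 2 arrays least like their group (control replicate 3 and knockout replicate 6, an alternative chosen after seeing the data), Gata6 was 0.43 higher and Gata1 was at -0.00147. Of the neighbours of Gata4, Blk turned sign in run 1 (-0.019), with the replicate block (-0.0087), without those 2 arrays (-0.0205) and without single livers (from -0.013 to 0.069), Tdh in run 1 (0.016) and Neil2 in run 2 (-0.034). The cause of these changes was not tested. Deviations of same-numbered livers correlated at -0.05 to 0.17 over 10 pairs, 2 of them over 0.1. Of 10 knockout livers 1 correlated best with the control of its own number, and the livers numbered 5 lie in different runs. Pairing by number was not detected, but low correlations cannot show that equal numbers are unrelated. With the replicate block the calls of Cd3e, Trac, Mylk, Col15a1, Clec4g and B230312C02Rik were lost (adjusted p = 0.062, 0.060, 0.069, 0.11, 0.066 and 0.055). Calls were also lost without the run term for Col15a1 (0.12) and Clec4g (0.053), with array weights for Cd3e (0.058), with the intensity trend for Oxr1 (0.052) and without the 2 arrays for Pf4 (0.061). Of 23 other genes with a call that were refitted, 23 lost it within run 1 and 10 within run 2. Cyp2e1 passed with the intensity trend (0.044) and, like Sox9, without dim rows (both 0.036). Signal over background could not be weighed from these values, which limits the dim genes Gata1, Gata2, Gata5 and Zfpm2.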
